A study of Mus musculus with 8 samples.

Results

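The constitutive proteasome subunits are the 34 genes Psma1 to Psma7, Psmb1 to Psmb7, Psmc1 to Psmc6 and Psmd1 to Psmd14. They were taken by name, and each was represented by the probe set of highest mean among those that carry its symbol alone. All 34 had such a probe set, out of 18193 genes with one on the array, and all 34 passed the filter on low values that kept 12540 genes for testing. The RNA came from peritoneal macrophages elicited with thioglycollate, a medium that causes a sterile inflammation of the peritoneum. Cells of wild-type mice and cells of mice labelled Zc3h12a-/- were each taken unstimulated (0 h) and after 1, 2 and 4 h with 100 ng/ml lipopolysaccharide (LPS), the bacterial ligand of TLR4. Zc3h12a encodes Regnase-1, an RNase that destabilises inflammatory mRNAs. Each genotype and time was hybridised to 1 Affymetrix array, so there were 8 arrays and no group had a replicate. The labels give neither the animals' age nor whether cells were pooled. With no replicates, p-values measure only how far these arrays depart from the fitted effects of time and genotype, not the spread between animals. In the LPS comparisons the genotypes stand in for replicates of each other.

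The 26S proteasome is the cell's main protease for ubiquitin-tagged proteins. Its 20S core is a barrel of outer alpha rings, which gate the entry channel, and inner beta rings, which hold the catalytic sites of Psmb5, Psmb6 and Psmb7. The 19S regulatory particle caps the core with a ring of ATPases that unfold substrates, base subunits that bind ubiquitin, and a lid whose subunit Psmd14 removes ubiquitin chains. In macrophages, inflammatory stimulation is known to bring in the inducible catalytic subunits Psmb8, Psmb9 and Psmb10, which replace Psmb5, Psmb6 and Psmb7 in newly built cores and alter the peptides made for MHC class I.

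Promoters are shown for 5 members. Psmd11, Psmd10 and Psma5 had the largest increases after 4 h of LPS, Psmd8 had a lower value, and Psmc1 held the most matches to the ETS core. The log2 difference of Psmd8 (-0.20) did not pass the test used below, by which 0 of the 34 fell, and that of Psmd2 was lower still (-0.28). RefSeq entries for assembly GRCm38.p6 covered 28 of the 34 members, and Psmb1, Psmb2, Psmb7, Psmc3, Psmd3 and Psmd7 had none. The 250 bases before the annotated start are given in the direction of the gene. Capitals mark matches, on either strand, to the ETS core CGGAAG, whose reverse complement is CTTCCG, or to the CCAAT box bound by NF-Y, whose reverse complement is ATTGG. Matches of the 2 motifs do not overlap in these stretches. The stretches are chr12:100109952-100110201 (plus strand) for Psmc1, chr11:80428365-80428614 (plus) for Psmd11, chr7:29180674-29180923 (minus) for Psmd8, chrX:140956712-140956961 (minus) for Psmd10 and chr3:108256676-108256925 (plus) for Psma5.
Psmc1: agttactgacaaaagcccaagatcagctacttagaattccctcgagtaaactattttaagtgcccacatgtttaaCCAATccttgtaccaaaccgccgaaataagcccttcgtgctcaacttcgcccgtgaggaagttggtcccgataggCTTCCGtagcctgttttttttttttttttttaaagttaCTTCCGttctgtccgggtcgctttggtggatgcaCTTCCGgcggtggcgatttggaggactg
Psmd11: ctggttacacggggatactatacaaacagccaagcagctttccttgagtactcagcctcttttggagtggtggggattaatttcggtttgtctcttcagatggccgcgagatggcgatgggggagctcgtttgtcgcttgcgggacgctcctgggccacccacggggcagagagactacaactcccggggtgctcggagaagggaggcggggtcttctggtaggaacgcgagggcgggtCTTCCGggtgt
Psmd8: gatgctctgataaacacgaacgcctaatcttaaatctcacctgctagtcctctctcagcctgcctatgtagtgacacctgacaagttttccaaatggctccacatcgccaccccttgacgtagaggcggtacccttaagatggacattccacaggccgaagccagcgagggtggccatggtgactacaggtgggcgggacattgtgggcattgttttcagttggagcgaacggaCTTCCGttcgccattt
Psmd10: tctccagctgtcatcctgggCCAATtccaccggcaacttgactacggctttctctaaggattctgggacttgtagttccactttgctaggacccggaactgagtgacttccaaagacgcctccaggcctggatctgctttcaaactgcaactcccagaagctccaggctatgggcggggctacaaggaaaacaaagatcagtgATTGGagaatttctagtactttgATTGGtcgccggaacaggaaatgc
Psma5: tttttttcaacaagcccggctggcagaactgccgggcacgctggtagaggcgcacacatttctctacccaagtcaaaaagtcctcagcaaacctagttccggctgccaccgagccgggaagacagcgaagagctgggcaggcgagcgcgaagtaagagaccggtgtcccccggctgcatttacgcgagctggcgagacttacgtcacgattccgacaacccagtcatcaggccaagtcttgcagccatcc

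The ETS core, bound by factors such as GABPA and ELK1, was found in 14 of 28 member promoters (50%), against 13.8% of 27025 promoters of all genes and 24.2% of the 10136 promoters of tested genes. Psmc1 held 3 matches, and Psmd11 and Psmd8 held 1 each. It was present in 5 of the 13 promoters of members that rose at 4 h and in 9 of the 15 others. The antioxidant response element core TGANNNNGC, the element read by NRF1 and NRF2, was found in 10 of 28 (35.7%). All promoters had it in 35.1% and those of tested genes in 36.75%. It was present in 4 of the 13 that rose and 6 of the 15 others. CCAAT was found in 11 of 28 (39.3%, against 34.5% and 36.0%), in 5 of the 13 and 6 of the 15. Psmd10 held 3 CCAAT matches. The interferon response core (GAAA, any 2 bases, GAAA) occurred in Psmd4, Psmd9 and Psmb3, 3 of 28 members (10.7%, against 3.04% and 2.76%). That is 0 of the 13 that rose and 3 of the 15 others. An NF-kB form (GGGA, any 2 bases, TTCC) occurred in 0 of 28, against 1.17% of all promoters and 1.19% of those of tested genes. Both strands were searched for each motif. These shares describe letters in a window and were not tested.

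The series as a whole was checked before the subunits were read. Correlations between pairs of arrays ran from 0.93 to 0.99. The brighter Zc3h12a probe set had log2 values of 6.12, 8.02, 8.87 and 8.57 in the wild-type arrays, by time, and 6.73, 7.70, 8.75 and 8.50 in the other series, and the second never left the range from 3.01 to 3.31. By the first, the arrays labelled knockout were higher at 0 h and slightly lower at 1, 2 and 4 h, none of them near background, and the position of these probes relative to the deletion was not analysed here, so the gene does not check the labels. The 8 measured macrophage markers lay above background on all 8 arrays, and their summed linear level was 33308 to 37066 in wild-type arrays and 33179 to 38149 in labelled-knockout arrays. Bacterial control probe sets put background between 2.96 and 3.26, and all 34 subunits lay above it on every array.

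After 4 h of LPS, 16 of the 34 subunits had risen and 0 had fallen, in a comparison where 14.4% of all tested genes rose and 29.4% fell (limma, genotype as a block, Benjamini-Hochberg adjusted p at a threshold of 0.05). The members' share was 47.1%. The median of the 34 log2 difference was 0.31, whereas that of all 12540 genes was -0.12. Counts at the earlier times were smaller: 1 subunit had risen at 1 h (3.85% of all genes rose and 6.62% fell) and 7 at 2 h (12.0% rose and 29.8% fell), with 0 lower at either time. The members' medians were -0.03 at 1 h and 0.10 at 2 h, against -0.09 and -0.16 for all genes. In bulk RNA, a change in the number of cells of a type and a change in RNA per cell cannot be told apart.

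**Figure D1:**
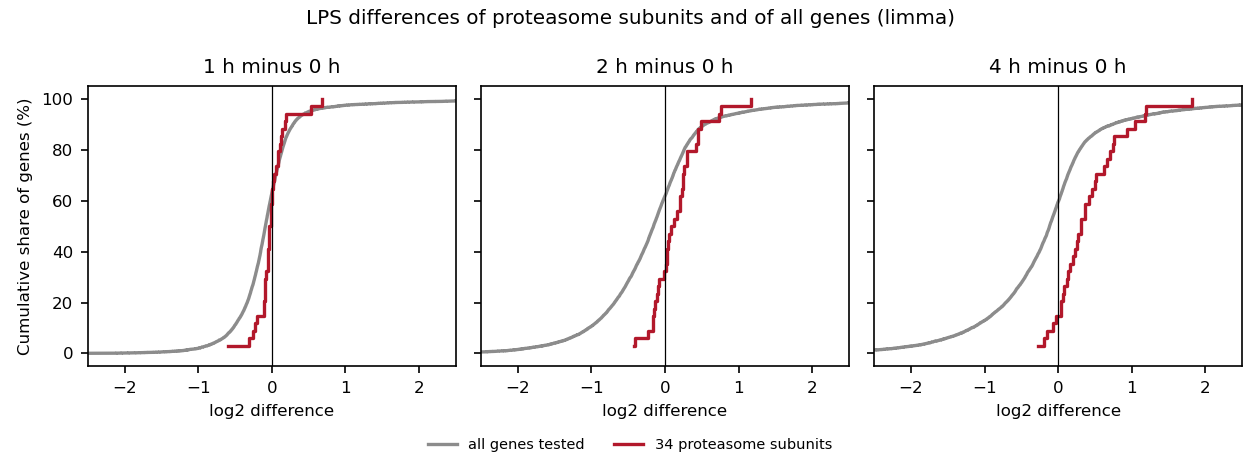
Cumulative share of genes (%) against the log2 difference from 0 h at 1, 2 and 4 h with LPS, over both genotypes, for the 34 proteasome subunits (red) and all 12540 tested genes (grey); the horizontal axis stops at 2.5 on each side. At 1 h the curves cross 50% close together, and at 4 h the subunits cross at 0.31 and all genes at -0.12.

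Each genotype was also set against its own 0 h array, without a test. At 4 h, 26 of 34 subunits were above 0 h in both genotypes and 4 below in both, compared with 31.6% and 50.2% of all genes. The median change was 0.24 in wild-type cells and 0.39 in labelled-knockout cells. Across the 34 members, which are not independent replicates and share arrays within a genotype, the changes of the 2 genotypes at 4 h had a Pearson correlation of 0.90 and a Spearman correlation of 0.85. At 2 h, 21 subunits were above and 9 below in both genotypes (30.1% and 53.4% of all genes). At 1 h, 8 were above and 12 below (23.1% and 47.1%), and 14 had opposite signs.

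**Figure D2:**
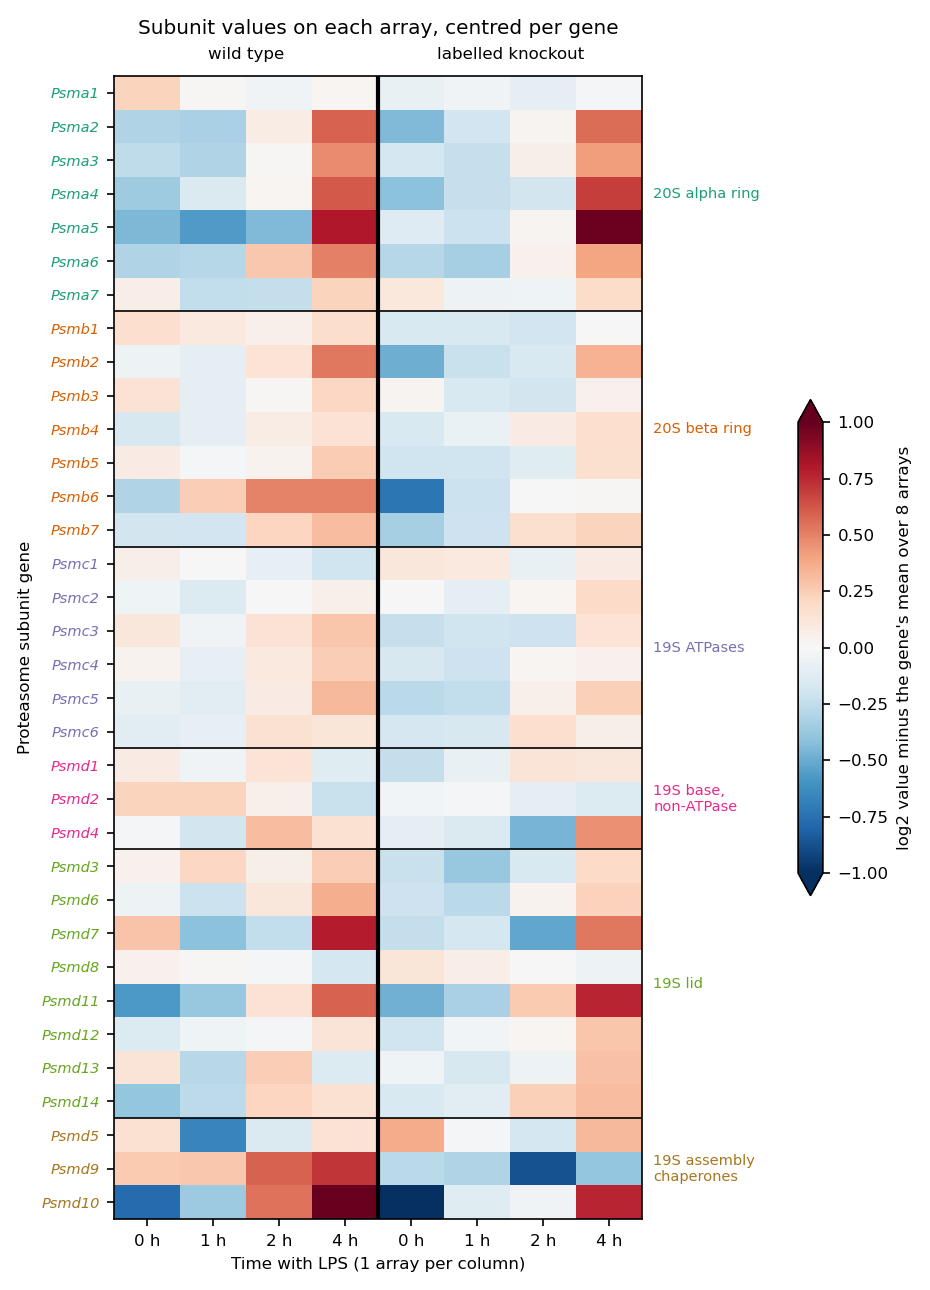
Colour gives the log2 value of each of the 34 subunit genes on each of the 8 arrays minus that gene's mean over the arrays, clipped at 1 on each side, with subunits grouped by subcomplex and arrays ordered by genotype and time. The 4 h columns of both genotypes are red for most alpha ring and lid genes, and Psmd9 differs between the left and right blocks.

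The 20S alpha ring had the highest median log2 difference of the 6 subcomplex groups at 4 h, 0.74. Of its 7 genes, 5 rose (71.4%, against 14.4% of all genes). Psma5 read 8.47, 8.35, 8.48 and 9.72 (log2, at 0, 1, 2 and 4 h) in wild-type arrays and 8.79, 8.71, 8.95 and 9.90 in labelled-knockout arrays. Both 4 h arrays stood clear of the other 6. At 2 h the change from 0 h was 0.01 in wild-type and 0.16 in labelled-knockout cells. Its log2 difference at 4 h was 1.18 (SE 0.12, limma adjusted p = 3.9e-04), a 2.27-fold increase, and 1.28 (SE 0.12, adjusted p = 3.8e-04) against 1 h. At 2 h its difference from 0 h was 0.08 (SE 0.12, adjusted p = 0.587).

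Psma4 read 7.45, 7.67, 7.83 and 8.43 in wild-type arrays and 7.40, 7.58, 7.63 and 8.50 in labelled-knockout arrays, a difference at 4 h of 1.04 (SE 0.11, limma adjusted p = 6.3e-04). Psma2 read 9.13, 9.11, 9.51 and 10.02, and 8.99, 9.24, 9.46 and 9.98, a difference of 0.94 (SE 0.11, adjusted p = 9.4e-04). In both genes the 4 h arrays were the 2 highest of the 8. Psma6 (0.74) and Psma3 (0.66) also rose. By the second Psma3 probe set, which lay at or near background (2.97 to 3.37), the difference was -0.056. Psma2 and Psma6 had risen by 2 h, by 0.42 and 0.45. The remaining alpha genes did not pass, at 0.12 for Psma7 and -0.07 for Psma1, whose highest value of the 8 arrays, 9.69, was that of unstimulated wild-type cells. Alpha subunits build the ring on which the core is assembled and whose tails close the channel.

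In the constitutive beta ring, 4 of 7 genes were higher at 4 h (57.1%, against 14.4% of all genes), with a median of 0.31. Psmb6, which carries the caspase-like site, was the subunit that passed at 1 h. It read 9.51, 10.06, 10.31 and 10.30 in wild-type arrays and 9.09, 9.60, 9.81 and 9.82 in labelled-knockout arrays. In each genotype it was higher at 1 h than at 0 h and higher again at 2 h, and lay level from 2 to 4 h. Its log2 difference was 0.53 at 1 h (SE 0.10, limma adjusted p = 0.0254), 0.76 at 2 h (SE 0.10, adjusted p = 1.9e-03) and 0.77 at 4 h (SE 0.10, adjusted p = 1.4e-03). The 1 h call was lost without any 1 of the 6 arrays of 0, 1 and 2 h, with adjusted p up to 0.173.

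Psmb7, the trypsin-like subunit, read 8.94, 8.93, 9.34 and 9.43 in wild-type arrays and 8.79, 8.92, 9.28 and 9.34 in labelled-knockout arrays. The 2 h and 4 h arrays were all above the 0 h and 1 h arrays, and the difference was 0.45 at 2 h (SE 0.10, limma adjusted p = 0.016) and 0.52 at 4 h (SE 0.10, adjusted p = 7.7e-03). Psmb5, the chymotrypsin-like subunit and the target of bortezomib, read 10.03, 9.93, 9.98 and 10.20, and 9.75, 9.75, 9.82 and 10.11. Both 4 h arrays were above the other 6, and the difference of 0.26 (SE 0.11, adjusted p = 0.0956) did not pass. Of the non-catalytic beta genes, Psmb2 (0.71) and Psmb4 (0.31) rose, while Psmb1 (0.08) and Psmb3 (0.04) did not pass.

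The inducible counterparts of the 3 catalytic subunits all rose at 4 h, where 14.4% of all genes rose. Psmb10, the counterpart of Psmb7, rose by 2.41 (SE 0.17, limma adjusted p = 1.1e-04), Psmb9, that of Psmb6, by 2.10 (SE 0.20, adjusted p = 3.3e-04), and Psmb8, that of Psmb5, by 1.90 (SE 0.12, adjusted p = 7.7e-05). Psmb9 read 6.99, 6.11, 7.49 and 9.19 in wild-type arrays and 6.79, 6.30, 6.86 and 8.79 in labelled-knockout arrays, so it was lowest at 1 h in both genotypes, when Psmb6 was already higher. The 1 h difference of Psmb9 did not pass (-0.68, SE 0.20, limma adjusted p = 0.0882). The change of Psmb9 minus that of Psmb6 went from -1.42 (wild type) and -1.0 (labelled knockout) at 1 h to 1.40 and 1.27 at 4 h. At 4 h the same margin was 2.07 and 1.72 for Psmb10 over Psmb7, and 1.73 and 1.55 for Psmb8 over Psmb5. Psme1, a subunit of the PA28 activator that opens the core independently of the 19S particle, rose by 1.5 (SE 0.11, adjusted p = 1.4e-04), and Psme3, which forms a nuclear form of that activator, was at 0.30 (SE 0.11, adjusted p = 0.0631). The margins between a pair are differences of changes on 2 arrays per genotype and were not tested.

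**Figure D3:**
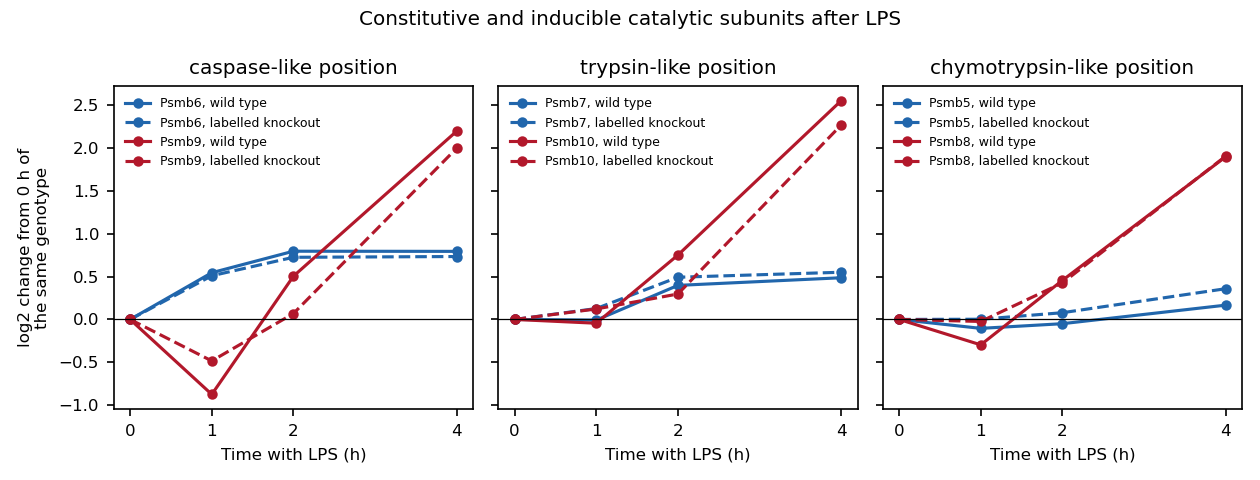
The log2 change from the 0 h array of the same genotype (vertical axis) against hours with LPS (horizontal axis) for each constitutive catalytic subunit (blue) and its inducible counterpart (red); solid lines are wild type, dashed lines labelled knockout, and each point rests on 2 arrays. Psmb6 is above its 0 h level from 1 h on while Psmb9 is below at 1 h, and all 3 red pairs end above the blue ones at 4 h.

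Of the 6 ATPases of the 19S base, 1 rose at 4 h (16.7%), a share near the 14.4% of all genes. This was Psmc5, reading 7.82, 7.79, 7.98 and 8.23 in wild-type arrays and 7.63, 7.65, 7.95 and 8.14 in labelled-knockout arrays. Its log2 difference was 0.46, and the median of the 6 was 0.22. Psmc3 (0.27, SE 0.12, limma adjusted p = 0.11), Psmc6 (0.23), Psmc4 (0.20) and Psmc2 (0.14) did not pass, nor did Psmc1 (-0.15), whose promoter holds 3 ETS cores. The 6 encoded proteins form a single ring, each in its own position.

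Of the 3 non-ATPase base genes, Psmd1, Psmd2 and Psmd4, 0 passed in limma at 1, 2 or 4 h, and 0 had an unadjusted p under 0.05. At these times 3.85%, 12.0% and 14.4% of all genes rose, and 6.62%, 29.8% and 29.4% fell. An unadjusted p under 0.05 was found for 3171, 6388 and 6404 of the 12540 genes. Psmd2, with Psmd1 a large scaffold that docks ubiquitin receptors and shuttle proteins, read 10.10, 10.10, 9.94 and 9.66 in wild-type arrays and 9.85, 9.87, 9.79 and 9.75 in labelled-knockout arrays. Each genotype was lowest at 4 h, and the log2 difference was -0.28 (SE 0.13, limma adjusted p = 0.127). Psmd1 was at 0.07, with the genotypes on opposite sides of 0 h (wild type -0.20, labelled knockout 0.35). Psmd4, itself a ubiquitin receptor, was at 0.36 (SE 0.25, adjusted p = 0.287).

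In the 19S lid, 5 of 8 genes were higher at 4 h (62.5%, against 14.4% of all genes), with a median of 0.40. Psmd11, a lid subunit that clamps the regulatory particle to the core, read 9.59, 9.78, 10.30 and 10.75 in wild-type arrays and 9.68, 9.84, 10.42 and 10.92 in labelled-knockout arrays. Each time was above the one before in both genotypes, with no overlap between times. Its log2 difference was 0.73 at 2 h (SE 0.10, limma adjusted p = 2.4e-03) and 1.20 at 4 h (SE 0.10, adjusted p = 2.3e-04), a 2.30-fold increase. The probe set used can match several transcripts. By the next 2 probe sets of Psmd11, in order of mean, the 4 h difference was 0.46 and 1.92.

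Psmd14, the deubiquitinase, read 9.27, 9.39, 9.86 and 9.80 in wild-type arrays and 9.50, 9.54, 9.89 and 9.96 in labelled-knockout arrays. Its 2 h and 4 h arrays lay above all 4 earlier ones, and the log2 differences were 0.49 at 2 h (SE 0.11, limma adjusted p = 0.0127) and 0.50 at 4 h (SE 0.11, adjusted p = 0.0108). Psmd7, its inactive partner in the lid, read 4.54, 3.85, 4.01 and 5.04, and 4.02, 4.08, 3.74 and 4.79, close to background, with the 4 h arrays the 2 highest and a difference of 0.63 (-0.044 by the gene's second probe set, which was above background on 3 arrays). Psmd6 (0.43) and Psmd12 (0.37) also rose at 4 h. Psmd3 (0.31, SE 0.15, adjusted p = 0.149), Psmd13 (0.03) and Psmd8 (-0.20, SE 0.10, adjusted p = 0.174) did not pass. Psmd8 was lowest at 4 h in each genotype, at 10.18 and 10.31.

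Of the 3 chaperones that assemble the 19S base, Psmd10 showed the largest increase of the 34 genes. Psmd10, or gankyrin, is also known as an oncoprotein that binds RB and the MDM2 ligase. It read 5.77, 6.18, 7.09 and 7.59 in wild-type arrays and 5.47, 6.42, 6.51 and 7.31 in labelled-knockout arrays. Each genotype climbed at every step, and both 4 h arrays were above the other 6. The log2 difference was 1.17 at 2 h (SE 0.19, limma adjusted p = 4.3e-03) and 1.82 at 4 h (SE 0.19, adjusted p = 5.5e-04), a 3.54-fold increase. At 1 h it was 0.68 (SE 0.19, adjusted p = 0.0845).

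Psmd5, which holds an ATPase pair before it joins the base, had its lowest values in between. It read 7.37, 6.56, 7.07 and 7.36 in wild-type arrays and 7.59, 7.20, 7.04 and 7.54 in labelled-knockout arrays, lower at 1 h and 2 h and back near its start at 4 h. Its log2 differences from 0 h were -0.60 at 1 h (SE 0.17, limma adjusted p = 0.0812) and -0.42 at 2 h (SE 0.17, adjusted p = 0.0921), neither of which passed, and -0.03 at 4 h. From 1 to 4 h it was among the 14 subunits that rose (14.1% of all genes rose and 20.7% fell), by 0.57 (SE 0.17, adjusted p = 0.0419). The others were Psma2 to Psma6, Psmb2, Psmb7, Psmc5, Psmd6, Psmd7, Psmd10, Psmd11 and Psmd14, of which Psma5 (1.28), Psmd10 (1.15, SE 0.19, adjusted p = 5.0e-03), Psmd11 (1.02, SE 0.10, adjusted p = 5.8e-04) and Psmd7 (0.95, SE 0.18, adjusted p = 8.5e-03) were largest. Without the wild-type 1 h array, which held the lowest Psmd5 value, the difference of Psmd5 from 1 to 4 h was 0.31. Psmd9 was at 0.16 at 4 h against 0 h.

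**Figure D4:**
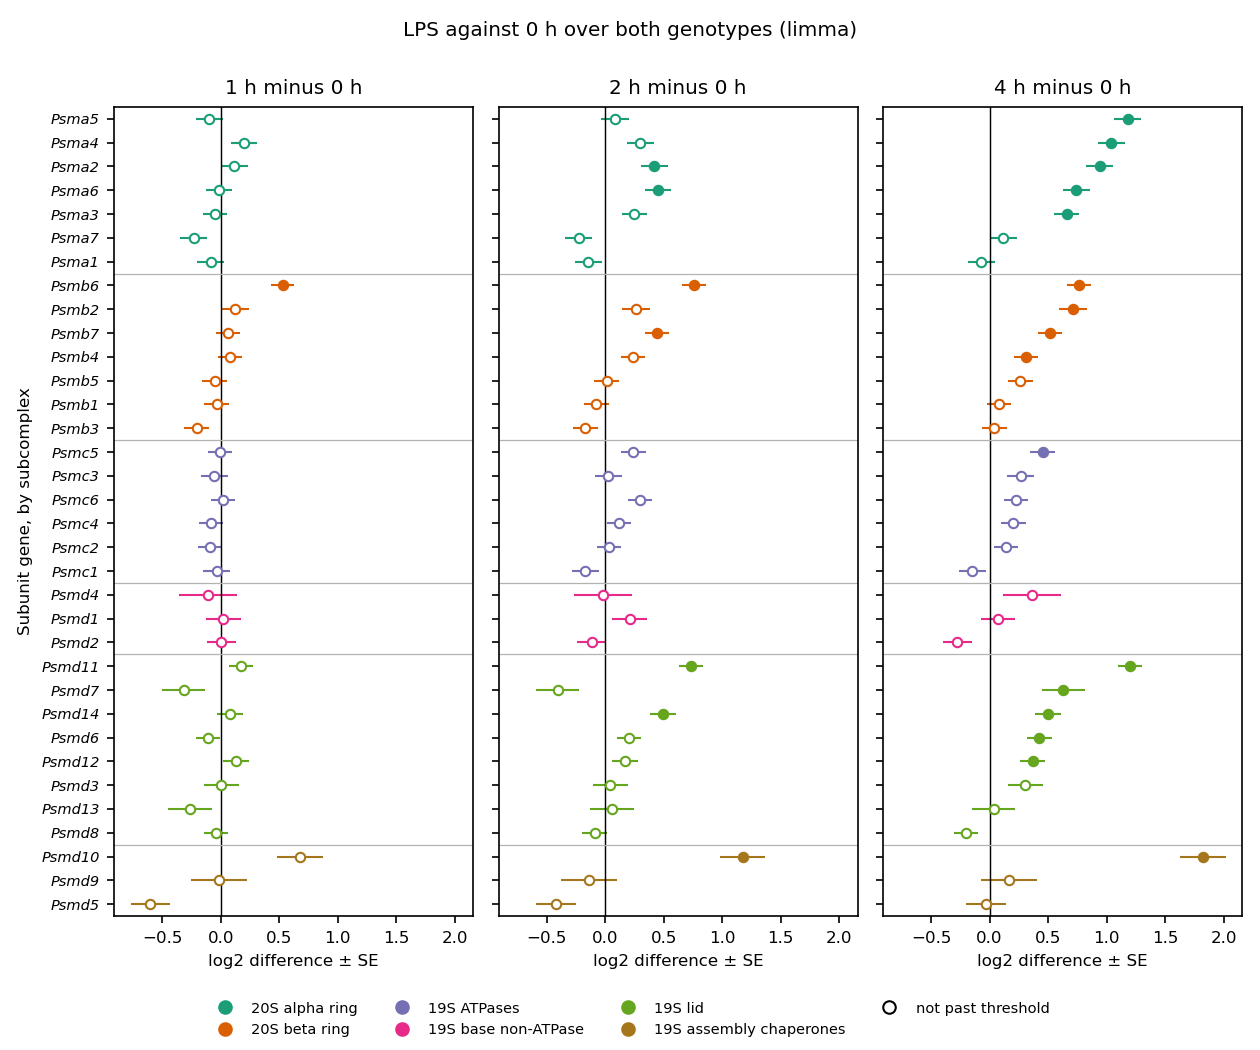
The limma log2 difference from 0 h with its SE (horizontal axis) for each of the 34 subunit genes (vertical axis, by subcomplex) at 1, 2 and 4 h with LPS over both genotypes; filled points passed an adjusted p of 0.05. Filled points number 1, 7 and 16 from left to right, all to the right of 0, with Psmd10 the farthest at 4 h (1.82).

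The count of 16 rested on the number of arrays and on the scaling. Without any 1 of the 8 arrays it fell to between 10 and 14, lowest without the wild-type 4 h, labelled-knockout 0 h or labelled-knockout 4 h array, and 9 genes passed in all 8 of those fits: Psma2 to Psma6, Psmb2, Psmb6, Psmd10 and Psmd11. The 7 at 2 h became 3 without the wild-type 0 h or 2 h array and 4 without either of the same labelled-knockout arrays. The 14 from 1 to 4 h became 8 without the wild-type 1 h array and 9 without either 4 h array. Centring each array on 9 housekeeping genes raised the 4 h count to 28 and moved the median of all genes from -0.12 to 0.28. As deposited, 4 of these 9 fell at 4 h and 0 rose, with a median of -0.22. Of all genes, 29.4% fell. Such centring shifts all genes alike, so it leaves the members' distance from that median, 0.42, as it was. Psmd2, Psmd8, Psmc1 and Psma1, below 0 as deposited, were then at 0.12, 0.20, 0.25 and 0.33.

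Other measures moved with time on the same arrays. For Actb, the control probe set at the 3' end exceeded that at the 5' end by 2.64 at 0 h and 2.16 at 4 h in wild-type cells, and by 3.11 and 2.30 in labelled-knockout cells, a gap that widens with degraded RNA. The same gap for Gapdh was 3.01 and 2.98 in wild-type cells and 3.31 and 2.90 in labelled-knockout cells. The summed level of 6 measured neutrophil markers averaged 1474 at 0 h and 3800 at 4 h, carried by S100a8, with Elane at background on every array. Macrophage markers averaged 34195 and 33244. Their part in the subunit differences was not tested. Among members measured by further probe sets above background, 15 of 22 such probe sets had the same sign at 4 h as the probe set used. For the 5 members that rose and had further ones, all 10 were above 0 h.

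Genes that assemble or regulate the proteasome outside the 34 were read next. Pomp, which escorts the maturing core, read 9.99, 9.90, 9.86 and 10.30 in wild-type arrays and 9.77, 9.85, 9.75 and 10.30 in labelled-knockout arrays, and rose by 0.42 at 4 h (SE 0.11, limma adjusted p = 0.0231). Of the 5 measured assembly factors it was the only one to pass at 4 h, where 14.4% of all genes rose and 29.4% fell. At 2 h, 4 of the 5 were lower and 0 higher: Psmg3 (-1.0), Psmg1 (-0.90), Psmg2 (-0.69) and Psmg4 (-0.44), the chaperones that pair up to start the alpha ring. Of all genes, 29.8% fell and 12.0% rose at 2 h. Psmg1 ranged from 3.88 to 4.95, Psmg3 from 3.45 to 5.38 and Psmg4 from 3.33 to 4.11, low values not far above background. Psmg3 was lower at 1 h too (-1.27). At 2 h Psma2 and Psma6, of the ring these chaperones help build, were higher.

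Of 13 measured proteasome-associated regulators, 2 rose at 4 h, Ecpas (0.85) and Ubqln1 (0.37), and 2 fell, Ubqln2 (-1.39) and Psmf1 (-0.42). Of all genes, 14.4% rose and 29.4% fell at 4 h. At 1 h Psmf1 was lower (-0.55) and 0 of the 13 were higher, where 6.62% of all genes fell and 3.85% rose. At 2 h, 3 regulators rose, Usp14 (0.54), Rad23b (0.55) and Ubqln1 (0.32), and 3 fell, Ubqln2 (-0.84), Ublcp1 (-1.09) and Psmf1 (-0.44). The shares of all genes at 2 h were 12.0% and 29.8%. Usp14 is a deubiquitinase of the 19S particle, and Rad23b a shuttle. Ecpas binds the 26S particle and the ubiquilins carry substrates to it. Psmf1 encodes PI31, which inhibits the core in vitro. Nfe2l1, the gene of the NRF1 factor that drives subunit transcription when the proteasome is impaired, read 7.85, 7.79, 8.23 and 8.71 in wild-type arrays and 8.0, 7.98, 8.26 and 8.70 in labelled-knockout arrays. Both 4 h arrays were the highest, and it rose by 0.78 (SE 0.11, limma adjusted p = 1.8e-03). Nfe2l2, the gene of NRF2, read 10.18 and 10.10 at 4 h, as at 0 h (adjusted p = 0.998).

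Keap1, which targets NRF2 for degradation, fell by 1.33 at 2 h and rose by 1.62 at 4 h. With Nfe2l1 it made 2 of 4 measured genes of the NRF route that rose at 4 h. Of all genes, 14.4% rose and 29.4% fell at that time. Of 4 measured ubiquitin and p97 genes, Nploc4 (0.55) rose and Ufd1 (-0.48) fell, both cofactors of p97, the ATPase that extracts ubiquitinated proteins. At 2 h Nploc4 (0.68) and Uba6 (0.72), an E1 enzyme, rose, where 12.0% of all genes rose. Among core subunits restricted to other tissues, Psmb11 of the thymus was at background on all 8 arrays, and Psma8 of the testis lay between 3.58 and 4.01.

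Over the 4 times, 1 of 34 was higher in the labelled-knockout arrays (4.75% of all genes) and 2 were lower (8.72%), by limma with time as a block. The median difference was -0.08, against -0.04 for all genes. Psmd9 and Psmb6 were the lower ones and Psma5 the higher. Each genotype had 1 array per time, so the times stand in for replicates. Genotype therefore cannot be told apart from animal or batch in these differences.

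Psmd9, the chaperone p27, was lower at every time: its wild-type values of 5.35, 5.36, 5.68 and 5.80 stood against 4.82, 4.79, 4.22 and 4.70, with no overlap. The difference was -0.92 (SE 0.17, limma adjusted p = 0.0212), and it was 0.14 by the gene's second probe set, which lay at or near background (3.0 to 3.45). Psmb6 was lower by a nearly constant margin of -0.42, -0.46, -0.50 and -0.48 at 0, 1, 2 and 4 h, which gave -0.47 (SE 0.07, adjusted p = 0.0118). Psma5 was higher by 0.32, 0.35, 0.47 and 0.18, giving 0.33 (SE 0.08, adjusted p = 0.047), and 0.12 by its second probe set. After housekeeping centring Psma5 was at 0.28 (adjusted p = 0.0736), and the counts became 0 higher and 4 lower, with Psmb1 and Psmb2 added.

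Leaving out either array of a time takes that time out of the genotype estimate, and each of the 3 calls was lost in some of those fits. Psma5 was lost without any of the 8 arrays (adjusted p up to 0.163), Psmb6 without a 0 h or 2 h array (up to 0.056) and Psmd9 without a 2 h or 4 h array (up to 0.0815). Of the members that did not pass, Psmb1 (-0.25, SE 0.07, limma adjusted p = 0.0768) and Psmb2 (-0.26, SE 0.08, adjusted p = 0.0934) were nearest on the lower side, and Psmd5 (0.25, SE 0.12, adjusted p = 0.207) and Psmd14 (0.14, SE 0.08, adjusted p = 0.263) on the higher side. Psmb5 was at -0.18 and Psmb7 at -0.08. The inducible Psmb8 (-0.23), Psmb9 (-0.26), Psmb10 (-0.20) and Psme1 (-0.14) did not pass either, nor did Pomp (-0.10), Psme3 (-0.06), Nfe2l1 (0.09) or Nfe2l2 (0.16). Of the regulators, Psmf1 was lower (-0.41, adjusted p = 0.0256).

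**Figure D5:**
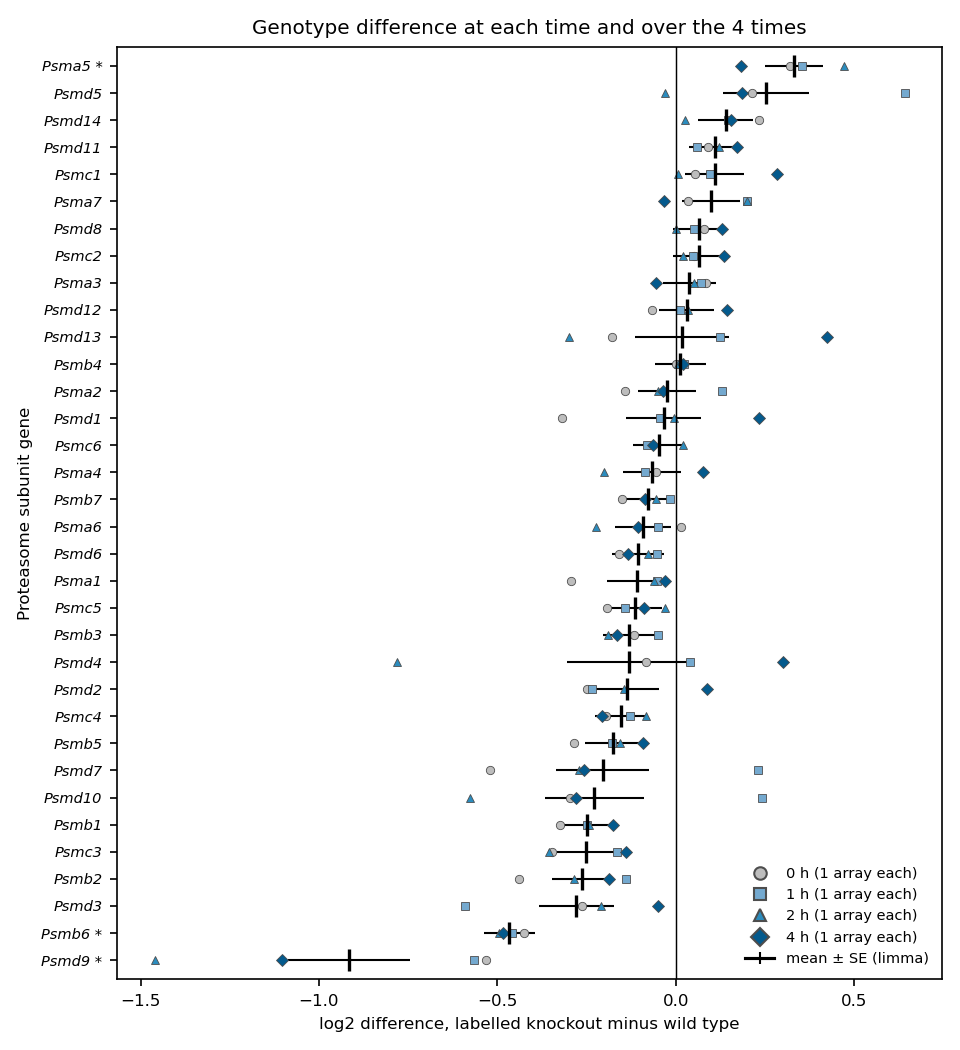
The log2 difference, labelled knockout minus wild type (horizontal axis), for each of the 34 subunit genes (vertical axis, ordered by the mean), with 1 symbol per time (1 array of each genotype) and the limma mean with its SE in black; an asterisk marks an adjusted p under 0.05. Psmd9 lies farthest to the left (-0.92) with its 2 h and 4 h symbols beyond -1, the 4 symbols of Psmb6 nearly coincide, and most symbols of the other genes lie within 0.5 of 0.

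At all 4 times 13 members were lower in the labelled-knockout array and 7 higher, where 24.5% and 14.8% of all genes did so. The 13 included 6 of the 7 beta ring genes, Psmb1 to Psmb3 and Psmb5 to Psmb7. The seventh, Psmb4, was among the 7, and its largest difference was 0.023. Between 18 and 23 of 34 members were lower at any single time.

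Markers of other cells differed between the genotypes at every time. The summed level of 8 resident peritoneal macrophage markers was 2491 to 3436 in wild-type arrays and 10903 to 12439 in labelled-knockout arrays, led by Prg4, Cxcl13, Fabp7 and Selp, and Gata6 read 3.15 to 3.44 and 3.59 to 4.21. The 9 mesothelial and stromal markers summed to 1421 to 1907 and 461 to 709, with Msln at background on every array. The 5 measured B cell markers summed to 80.7 to 88.1 and 457 to 732, with Pax5 at background. Ighm carried that sum, and Cd79a and Cd79b were lower in the labelled-knockout array at every time. Those of T and NK cells summed to 49.7 to 59.2 and 70.4 to 108. Cd3e read 4.70 to 5.16 and 5.53 to 6.35, and Cd3g was at background. Eosinophil markers summed to 46.4 to 66.2 and 48.1 to 70.9, mast cell markers to 47.7 to 75.9 and 38.8 to 44.1, and neutrophil markers to 1386 to 3603 and 1562 to 3997. The macrophage sums overlapped, as given above, but genes in that list differed at every time. Adgre1 (11.71 against 10.82 at 0 h), Cd68 and Itgam were higher in the labelled-knockout array. Fcgr1 (7.55 against 8.71 at 0 h) and Lyz2 were lower there. The Actb gap was wider in the labelled-knockout array at each time, at 0 h 3.11 against 2.64 and at 4 h 2.30 against 2.16. The Gapdh gap was wider there at 0 h, 3.31 against 3.01, and narrower at 1, 2 and 4 h, the last 2.90 against 2.98. The part of these cells and of RNA quality in the differences of Psmd9, Psmb6 and Psma5 was not tested.

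An interaction term tested whether the gap between genotypes averaged over the 3 LPS times differed from the gap before LPS. By limma 0 of 34 subunits and 0 of 12540 genes (0%) passed, and 0 subunits and 434 genes had an unadjusted p under 0.05. With trend and robust settings 0 subunits and 15 genes passed. The members' estimates ran from -0.51 (Psmd9, SE 0.37) to 0.42 (Psmd7, SE 0.27), with a median of 0.06. This test had 2 residual degrees of freedom, and differences of the size seen could not be resolved with these arrays.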

How the data were processed

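RNA of 8 macrophage samples was measured on Affymetrix arrays. The authors deposited log2 values for 45101 probe sets, made with RMA per the submitters' processing notes (version not given in the sources used here). RMA makes the arrays' distributions alike, so a change in total mRNA would not be seen. Of the probe sets, 34958 had 1 gene symbol in the platform annotation, 932 had several and 9211 were unnamed here. The only Psme2 probe set carries 2 symbols, so Psme2 was not analysed here.

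For each gene the probe set with the highest mean was used. Genes were tested if at least 2 arrays reached 3.16, the table's median. The limma 3.58.1 fits (R 4.3.3, lmFit and eBayes) used all 8 arrays with time and genotype as terms, 3 residual degrees of freedom (2 with the interaction), and Benjamini-Hochberg adjustment over 12540 genes at 0.05. They were tested on simulated data. Errors are moderated SEs. Differences at a single time rest on 2 arrays and were not tested, and their number limits the precision. The background of an array was its highest value among 27 bacterial control probe sets.

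The members, gene lists, motifs and tests were chosen with earlier results of these data known. Members past the threshold were named with SE and adjusted p when among the 6 largest each way, members not past it when among the 2 of smallest p each way, the catalytic subunits, their counterparts, Psme1, Psme3, Pomp, Nfe2l1 and Nfe2l2 always, and other lists by their 2 smallest p each way. Other genes and values given were chosen after their values were seen. Promoters were RefSeq windows of 250 bases before the start. Alternatives were cyclic loess, housekeeping centring, other filters and probe sets, trend and robust eBayes, a 2-fold minimum, no block, and leaving out each array.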

Additional observations from a re-analysis of the deposited data

Results flagged for a closer look

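Psmd9 was above its 0 h value at 1, 2 and 4 h in wild-type cells and below it at each of these times in labelled-knockout cells. The mean log2 change over the 3 times differed by -0.51 (labelled knockout minus wild type). By the limma interaction term (SE 0.37) the adjusted p was 0.9996, so the difference did not pass. In wild-type and labelled-knockout cells the changes of Psmd9 were 0.003 and -0.03 at 1 h, close to no change. They were 0.33 and -0.60 at 2 h and 0.45 and -0.12 at 4 h.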

How the results depend on the processing

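Of 19 alternatives, those that changed a count of subunits by more than 1.5 times were as follows. At 1 h (1 gene) the count was 2 after cyclic loess, 3 with trend and robust eBayes (2 higher and 1 lower), and 0 with second probe sets, a 2-fold minimum or no genotype term. At 2 h (7) it was 11 after loess, 21 after housekeeping centring, 3 with second probe sets, 11 with trend and robust settings and 1 with the 2-fold minimum. At 4 h (16) it was 28 after housekeeping centring, 6 of 19 genes with second probe sets and 4 with the 2-fold minimum (Psma4, Psma5, Psmd10 and Psmd11). Some second probe sets, such as those of Psma3, Psmd2 and Psmd7, lay at or near background. Loess gave 20, and trend and robust settings gave 19 higher and 2 lower (Psmd2 and Psmd8). From 1 to 4 h (14) it was 27, 5, 25 and 3 for centring, second probe sets, trend and robust settings, and the 2-fold minimum. The genotype count (3) was 1 with the mean of probe sets, 0 with second probe sets, the 2-fold minimum or no time term, 6 with trend and robust settings, and 1 on the 6 arrays after LPS. Leaving out each array gave 0 to 1 genes at 1 h, 3 to 8 at 2 h, 10 to 14 at 4 h, 8 to 14 from 1 to 4 h and 0 to 2 for genotype. The interaction count was 0 wherever it could be fitted, which was not the case without a 0 h array. Among all genes, housekeeping centring turned 1809 higher of 5498 calls at 4 h into 4884 of 6911. Called members changed sign as follows. With second probe sets the 4 h difference was -0.056 for Psma3 and -0.044 for Psmd7, and that of Psma3 from 1 to 4 h was -0.21. The Psma3 values were the same when probe sets that can match several transcripts were left out. Psma1 at 4 h, below 0 and not past the threshold as deposited, was 0.33 and passed after housekeeping centring. The genotype difference changed sign for Psma5, to -0.036 when probe sets that can match several transcripts were left out. The Psma5 probe set then used read 2.85 to 3.39 and was above background on 2 arrays. The genotype difference also changed sign for Psmd9, to 0.14 with the second probe set. The cause was not tested, beyond the fewer genes or arrays of some settings. No paired analysis was possible because the labels carry no replicate numbers, with 1 array a group; the fits match arrays by time and genotype alone.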
